A study of Mus musculus with 516 samples.

Results

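Somatostatin (Sst), natriuretic peptide B (Nppb) and 4 receptor genes, Il31ra, Osmr, Cysltr2 and Npy2r, were followed in single cells from the dorsal root ganglia of mice, where the cell bodies of the body's sensory neurons lie. The 6 genes were chosen by name, as 6 of the 11251 rows of a table of read counts from 516 cells, and all 6 were in it. The cells came from the wild-derived inbred strain CAST/Ei and the laboratory strain C57BL/6. There were 4 groups, cultured and naive cells of each strain. CAST/Ei gave 273 cells, of which 99 were cultured, and C57BL/6 gave 243, and in all 210 cells were cultured and 306 naive. Naive cells were captured after dissociation. Cultured cells, which the labels call injured and describe as axotomised in vitro, were plated on plastic for 48 h, were given ara-C, which stops dividing cells, at 24 h, and were lifted with trypsin. All cells passed a mesh of 35 µm, which limits the size of the neurons that could be captured. The labels name no age, sex, animal, culture or capture run, so each of the 4 groups was 1 sample, its cells were not replicates, and no difference between groups or cells could be tested.

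The table held 496696577 reads, 13932 to 2978345 per cell, with group medians of 1111710 in cultured CAST/Ei, 960205 in naive CAST/Ei, 729522 in cultured C57BL/6 and 696013 in naive C57BL/6 cells. Levels are given as CPM, reads of a gene per 1000000 reads of the same cell or of the summed group. Intervals are exact 95% intervals, Poisson for reads and Clopper-Pearson for shares of cells. They take reads, or cells, as independent counts and leave out animals, cultures and capture runs. Amplified copies of a molecule were not marked and count as separate reads, so the Poisson intervals are narrower than the counting error. The Poisson intervals also leave out the spread between cells. Cells were clustered on genes other than the 6. Cells of clusters in which the neuron marker list was the highest are called neuron cells here. They were 65 of the cultured CAST/Ei cells (65.7%), 89.7% of the naive CAST/Ei cells, 34 of the cultured C57BL/6 cells (30.6%) and 87.9% of the naive C57BL/6 cells. In naive C57BL/6 they include 31 cells of a cluster led by Tmem132c, Cckar and Hcrtr2 and with Th among its 10 leading genes, which stayed unnamed because the mural marker Rgs5 was among its leading genes.

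In mouse ganglia the 6 genes are known to mark one class of small-diameter itch neuron. Nppb and somatostatin are peptides that such neurons release in the spinal cord, where they take part in relaying itch. IL-31 receptor A and the oncostatin M receptor form the receptor for the cytokine IL-31, which signals through the kinase JAK1, and the oncostatin M receptor also pairs with gp130, the product of Il6st. Cysltr2 encodes a receptor for cysteinyl leukotrienes, lipid mediators of allergic inflammation, and Npy2r a receptor for neuropeptide Y.

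The upstream sequences of the peptide genes are shown because these genes had the smallest share of reads outside the cells described below. Sst lies on chromosome 16 at 23889573 to 23890958 (minus strand) and Nppb on chromosome 4 at 147985788 to 147987205 (plus strand), both in build GRCm38 with the GENCODE M21 annotation. The 250 bases before the RefSeq start (RefSeq promoter table, build GRCm38.p6) are chr16:23890845-23891094 for Sst and chr4:147985650-147985899 for Nppb. GENCODE M21 starts both genes further upstream, inside these windows. Capitals mark the motifs found in them.
Sst: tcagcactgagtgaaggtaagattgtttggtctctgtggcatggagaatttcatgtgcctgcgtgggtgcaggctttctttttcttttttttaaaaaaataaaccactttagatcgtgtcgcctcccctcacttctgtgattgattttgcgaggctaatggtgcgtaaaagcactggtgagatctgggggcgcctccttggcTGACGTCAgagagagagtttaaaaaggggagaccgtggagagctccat
Nppb: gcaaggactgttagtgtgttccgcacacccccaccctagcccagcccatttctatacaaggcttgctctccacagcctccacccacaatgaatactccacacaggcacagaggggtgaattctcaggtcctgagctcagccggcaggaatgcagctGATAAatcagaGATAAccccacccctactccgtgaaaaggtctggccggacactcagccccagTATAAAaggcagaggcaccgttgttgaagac
The capitals in Sst are the palindrome TGACGTCA, a full cyclic AMP response element, 48 to 41 bases before the start. In the 250 bases of 32851 promoters it was present in 1.55%, and in none of the other 5 genes. The capitals in Nppb are TATAAA at 31 to 26 bases, present in 12.4% of promoters, and GATAA at 94 to 90 and 83 to 79 bases, present in 22.6% of them. On both strands, GATAA was also in the windows of Il31ra and Npy2r, TTCNNNGAA was in that of Il31ra and in 7.02% of promoters, and TGTGGT was in none of the 6 and in 14.05% of promoters. These matches are descriptions of letters, not binding sites.

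In naive cells the 6 genes came together in a small population. Of the 306 naive cells, 13 from CAST/Ei and 6 from C57BL/6 held all 6 genes at 10 CPM or more, a share of 7.47% (4.04 to 12.4) of the CAST/Ei and 4.55% (1.69 to 9.63) of the C57BL/6 naive cells. None of the 210 cultured cells did, and a count of 0 allows a share of up to 3.03% of those from CAST/Ei and 2.703% of those from C57BL/6. These 2 limits are 3 counts over the number of cells. The upper ends of the exact intervals were 3.66% in CAST/Ei and 3.27% in C57BL/6. In naive C57BL/6 no cell held 4 or 5 of the genes, and 4 cells held 3. In naive CAST/Ei 1 cell held 5, 7 held 4 and 19 held 3. At least 3 genes, a broader definition of co-expression, were thus held by 3 cultured and 40 naive CAST/Ei cells and by 10 cultured and 10 naive C57BL/6 cells. The requirement of all 6 was chosen after these numbers were seen, and it picks the cells in which the genes are high, so the levels in them are a description.

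**Figure D1:**
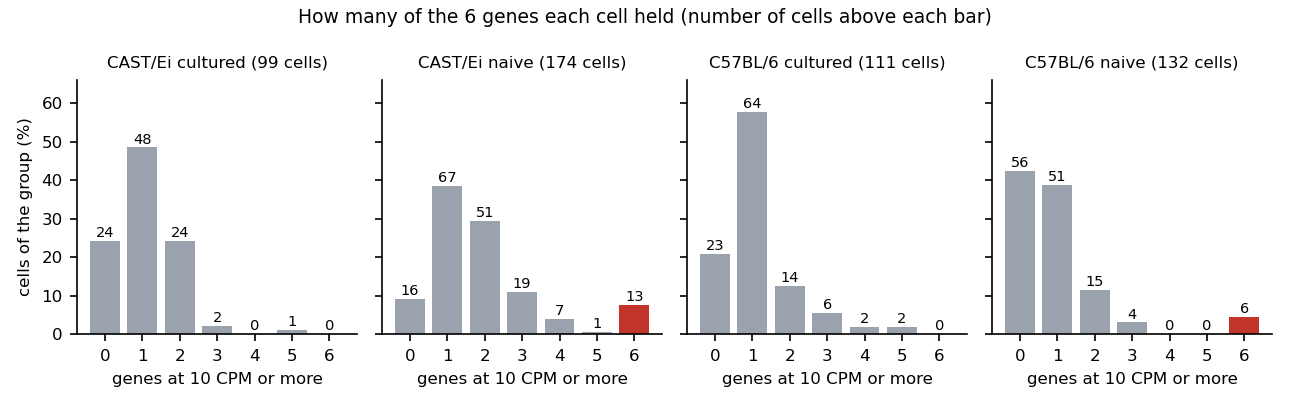
Share of the cells of each group (vertical axis, %) by how many of the 6 genes they held at 10 CPM or more (horizontal axis), with the number of cells above each bar. Red bars, present in the naive groups, are the 13 CAST/Ei and 6 C57BL/6 cells with all 6, and in naive C57BL/6 nothing lies between 3 genes and 6.

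The same cells were found without these genes. Cluster 14, built from genes other than the 6, held 19 cells, 13 naive CAST/Ei and 6 naive C57BL/6, and they were exactly the 19 cells with all 6 genes. It was one of 2 clusters, with cluster 4, in which naive neuron cells of both strains stood together, while other naive neuron clusters held 1 strain. All 19 were neuron-like by their markers, with a summed neuron list of 16014 to 33502 CPM in CAST/Ei and 12046 to 15302 CPM in C57BL/6. Markers of other cells were present in them. The 10 glial markers summed to a median of 883 CPM in CAST/Ei, with a highest cell of 3035, and to 293 CPM in C57BL/6, with a highest cell of 396, against medians in the other naive neuron cells of 2150 CPM in CAST/Ei and 2419 CPM in C57BL/6. The glial markers Sox10 and Cdh19 had no read in the C57BL/6 cells. The 6 fibroblast markers reached 6274 CPM in 1 CAST/Ei cell and 2105 CPM in 1 C57BL/6 cell, with medians of 56.6 CPM in CAST/Ei and 32.9 CPM in C57BL/6, against 28.8 CPM and 12.1 CPM in the other naive neuron cells of CAST/Ei and C57BL/6, and Lum and Pdgfra had no read in the C57BL/6 cells. The 7 endothelial markers in the table summed to 9.35 to 244 CPM in the CAST/Ei cells, with a median of 77.98, against a median of 4.14 CPM in the other naive CAST/Ei neuron cells, and to at most 3.77 CPM in the C57BL/6 cells. Most of that sum was Ly6c1, with 62.3 against 16.7 CPM in CAST/Ei, while Cdh5 had 1.84 against 11.5 CPM there. The part of such transcripts in the values below was not tested.

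Nppb was the more even of the peptides. Its lowest, median and highest values in the 19 cells were 1268, 1941 and 3406 CPM in CAST/Ei and 618, 797 and 1058 CPM in C57BL/6. Every CAST/Ei cell was above every C57BL/6 cell, the only one of the 6 genes with no overlap between the strains. Of 11097 genes with a read in these cells, 0.532% lay wholly above and 0.73% wholly below C57BL/6 in the same way.

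Sst, the somatostatin precursor, was far more uneven in CAST/Ei. Its lowest, median and highest values were 16.7, 1338 and 10071 CPM there and 252, 391 and 912 CPM in C57BL/6. In CAST/Ei 10 of the 13 cells lay above the highest C57BL/6 cell and 2 below the lowest. The low extreme was CAST/Ei cell 55, with 16.7 CPM of Sst beside 1297 CPM of Nppb in 1076390 reads. The high extreme was cell 99, which had only 24924 reads in all, so that 1 read is worth 40.1 CPM and its Il31ra and Cysltr2 values rest on 1 read each. Without that cell the highest Sst value was 3286 CPM.

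Of the cytokine receptor chains, Il31ra leaned the other way between the strains and Osmr differed little. Il31ra, which binds IL-31, had a lowest, median and highest value of 40.1, 412 and 924 CPM in CAST/Ei and 421, 822 and 1441 CPM in C57BL/6. The ranges overlapped, but 7 of the 13 CAST/Ei cells were below the lowest C57BL/6 cell. Osmr, the shared chain, was closest between the strains, with 241, 763 and 1925 CPM in CAST/Ei and 706, 898 and 1235 CPM in C57BL/6.

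The receptors for leukotrienes and neuropeptide Y overlapped between the strains. Cysltr2 had 40.1, 188 and 490 CPM in CAST/Ei cells and 51.8, 276 and 535 CPM in C57BL/6 cells, with 1 CAST/Ei cell below the C57BL/6 range. Npy2r had 321, 943 and 1741 CPM in CAST/Ei and 264, 688 and 980 CPM in C57BL/6, and 6 CAST/Ei cells exceeded the highest C57BL/6 cell. On the log2 scale the medians differed between CAST/Ei and C57BL/6 by 1.77 for Sst, 1.28 for Nppb, -0.99 for Il31ra, -0.24 for Osmr, -0.56 for Cysltr2 and 0.45 for Npy2r.

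Levels per length set the peptides further apart from the receptors. Per kilobase of exon, the summed cells with all 6 genes held 2438 CPM of Nppb in CAST/Ei and 1055 in C57BL/6, and 1719 CPM of Sst in CAST/Ei and 599 in C57BL/6. Npy2r followed with 313 in CAST/Ei and 177 in C57BL/6. The 3 remaining receptors lay close together, at 72.7 (Osmr) to 90.4 (Cysltr2) CPM per kilobase in CAST/Ei and 82.6 (Cysltr2) to 136.6 (Il31ra) in C57BL/6, and their order differed between the strains. Exon length was taken from all annotated exons of a gene, from 721 bases for Sst to 12113 for Osmr, so genes with unused exons come out low.

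**Figure D2:**
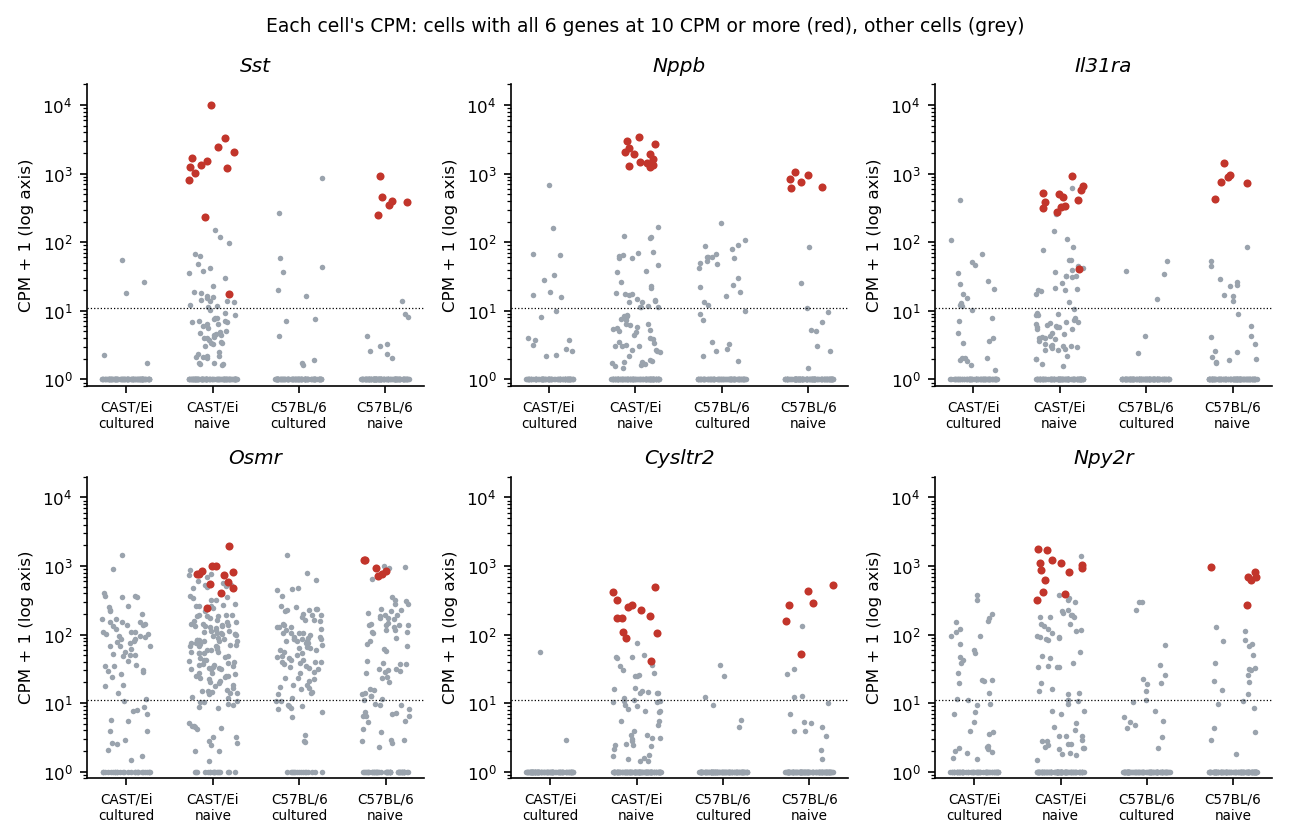
CPM + 1 of each of the 516 cells (log axis) for the 6 genes by group, spread sideways at random, with the dotted line at 10 CPM. Red points are the 19 cells with all 6 genes, which stand above nearly all other cells for Sst, Nppb, Il31ra and Cysltr2 but not for Osmr.

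How much of a gene's reads these few cells held separated the 6 genes. They held 94.1% of the Sst reads of naive CAST/Ei cells and 99.4% of those of naive C57BL/6 cells. For Nppb the shares were 94.9% in CAST/Ei and 96.9% in C57BL/6, for Cysltr2 79.8% and 88.9%, and for Il31ra 69.3% and 94.7%. Npy2r was less concentrated, with 63.9% in CAST/Ei and 83.9% in C57BL/6, and Osmr least, with 34.1% in CAST/Ei and 40.5% in C57BL/6. In both strains the peptides had the highest shares, Il31ra and Cysltr2 the next, and Npy2r and Osmr the lowest.

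Across all naive cells, the 15 pairs of the 6 genes had a median Pearson r of log2(CPM + 1) of 0.49 (0.21 to 0.71) in CAST/Ei and 0.63 (0.34 to 0.87) in C57BL/6, highest for Sst with Nppb in both strains. Without the cells that held all 6 genes the medians were 0.05 in CAST/Ei and 0.08 in C57BL/6. Those cells were chosen by the same 6 genes, so leaving them out lowers these r values by construction. At 100 CPM or more, Sst, Nppb and Il31ra stood in the same 6 cells of naive C57BL/6. In naive CAST/Ei, 12 cells had both peptides at that level, which were 85.7% of the 14 cells with Sst and 70.6% of the 17 with Nppb. These correlations describe cells of 1 sample each.

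Beyond the 6 genes, the cells shared a set of transcripts that other naive neurons had at much lower levels. Set against the other neuron cells of the same strain, 190 of 11245 genes (1.69%) were at least 2-fold higher in both strains and 1441 (12.8%) at least 2-fold lower, on the log2(CPM + 1) scale. The rule for naming genes put Htr1f first, the gene of a serotonin receptor, with 411 against 0.944 CPM in CAST/Ei and 413 against 1.96 CPM in C57BL/6 (cells with all 6 genes, then other neuron cells). All 13 CAST/Ei and all 6 C57BL/6 cells had 100 CPM or more of it, and none of the 253 other naive neuron cells did. Nts, the neurotensin precursor, had 761 against 16.3 CPM in CAST/Ei and 550 against 0.981 CPM in C57BL/6. The next were Ptprk, a receptor tyrosine phosphatase, Ada, which breaks down adenosine, and Pde4c, which breaks down cyclic AMP. Ptprk had 117.8 against 1.74 CPM in CAST/Ei and 132.8 against 1.08 CPM in C57BL/6. Ada had 117.1 against 1.89 CPM in CAST/Ei and 192 against 3.16 CPM in C57BL/6. Pde4c had 283 against 9.002 CPM in CAST/Ei and 164.5 against 7.11 CPM in C57BL/6.

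Jak1, the gene of the kinase at the IL-31 receptor, separated the cells without overlap. It had 7148 against 515 CPM in CAST/Ei and 5888 against 436 CPM in C57BL/6, a log2 ratio of 3.79 and 3.75. The lowest of the cells with all 6 genes had 4075 CPM in CAST/Ei and 4386 CPM in C57BL/6, above the highest other neuron cell of either strain, with 1994 CPM in CAST/Ei and 1538 CPM in C57BL/6. Adk, which phosphorylates adenosine, had 3706 against 797 CPM in CAST/Ei and 4265 against 433 CPM in C57BL/6. The other genes that the rule named were Gm9199, Stom, Zfp820, Resp18, Mras, Ndst3, S1pr1, Tspan8, Ddah1, B3galnt1, Nsg1, Kcnh7 and Ndp, with log2 ratios of 2.19 to 4.53. With the definition of at least 3 genes the same rule kept only Jak1, Mras, Ddah1 and B3galnt1 of these 20, and Jak1 was first, with 2484 against 492 CPM in CAST/Ei and 3851 against 552 CPM in C57BL/6.

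Of the 9 listed signalling partners of the receptors, Jak1 alone was at least 2-fold higher in both strains, and 0 were lower. The list's median log2 ratio was -0.37 in CAST/Ei and 0.21 in C57BL/6, beside medians over all genes of -0.22 and -0.30. Lifr, a related receptor chain, had 783 against 645 CPM in CAST/Ei and 2687 against 2317 CPM in C57BL/6. Stat3, the transcription factor downstream, had 291 against 281 CPM in CAST/Ei and 405 against 322 CPM in C57BL/6, and Il6st 121.3 against 221 CPM in CAST/Ei and 114.8 against 122.03 CPM in C57BL/6. Of the 6 genes listed as features of this neuron type in mouse atlases, 3 were at least 2-fold higher in both strains: Nts, Htr1f and Jak1. The list's median log2 ratio was 2.60 in CAST/Ei and 2.17 in C57BL/6, and Jak1 counts in both lists. Trpv1, the capsaicin receptor, had 143.5 against 53.6 CPM in CAST/Ei and 84.9 against 55.97 CPM in C57BL/6. Trpa1, a channel for irritants, had 649 against 304 CPM in CAST/Ei and 58.2 against 68.6 CPM in C57BL/6, and Plcb3, a phospholipase, 226 against 148.9 CPM in CAST/Ei and 110.5 against 78.2 CPM in C57BL/6.

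Of 8 genes of the non-peptidergic lineage, 0 were at least 2-fold higher and 0 lower in both strains, with a median log2 ratio of -0.63 in CAST/Ei and -0.00267 in C57BL/6. The sodium channel gene Scn10a had 492 against 651 CPM in CAST/Ei and 480 against 356 CPM in C57BL/6, and the transcription factor gene Runx1 175 against 180 CPM in CAST/Ei and 390 against 381 CPM in C57BL/6. Of 8 listed receptors of the peptides and genes of the itch relay, 3 were in the table, and Npy1r, another neuropeptide Y receptor, was at least 2-fold lower in both strains, with 0.276 against 13.8 CPM in CAST/Ei and 0.144 against 54.4 CPM in C57BL/6. Nmb, a peptide of itch neurons, had 228 against 289.5 CPM in CAST/Ei and 113.1 against 133.6 CPM in C57BL/6.

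Markers of the other neuron classes were low in these cells. All 5 genes listed for low-threshold C fibres were at least 2-fold lower in both strains, led by Th, the dopamine synthesis enzyme, with 4.79 against 713 CPM in CAST/Ei and 0.576 against 782 CPM in C57BL/6. So were 3 of 4 genes of Mrgprd nociceptors, 4 of 5 of Mrgpra3 itch neurons, 3 of 5 of peptidergic nociceptors and 2 of 4 of large-diameter neurons. The median log2 ratios of these 5 lists lay between -4.53 and -1.07 in CAST/Ei and between -5.18 and -2.16 in C57BL/6. Mrgpra3, an itch receptor, had 12.8 against 459 CPM in CAST/Ei and 13.4 against 256 CPM in C57BL/6. Mrgprd had 24.7 against 260 CPM in CAST/Ei and 15.1 against 130.4 CPM in C57BL/6. Calca, the gene of the peptide CGRP, had 832 against 4434 CPM in CAST/Ei and 204 against 4820 CPM in C57BL/6, and Tac1, the substance P precursor, 265 against 1029 CPM in CAST/Ei and 221 against 1164 CPM in C57BL/6. The other neuron cells include cells of these classes. Of the 10 glial markers 8 were also at least 2-fold lower in both strains, as were 6 of 7 endothelial markers, all but Ly6c1. Of the 6 fibroblast markers 0 were lower and 1, Col3a1, was at least 2-fold higher in both strains, with 53.3 against 19.4 CPM in CAST/Ei and 19.6 against 8.83 CPM in C57BL/6. That list's median log2 ratio was 1.45 in CAST/Ei and -0.86 in C57BL/6.

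**Figure D3:**
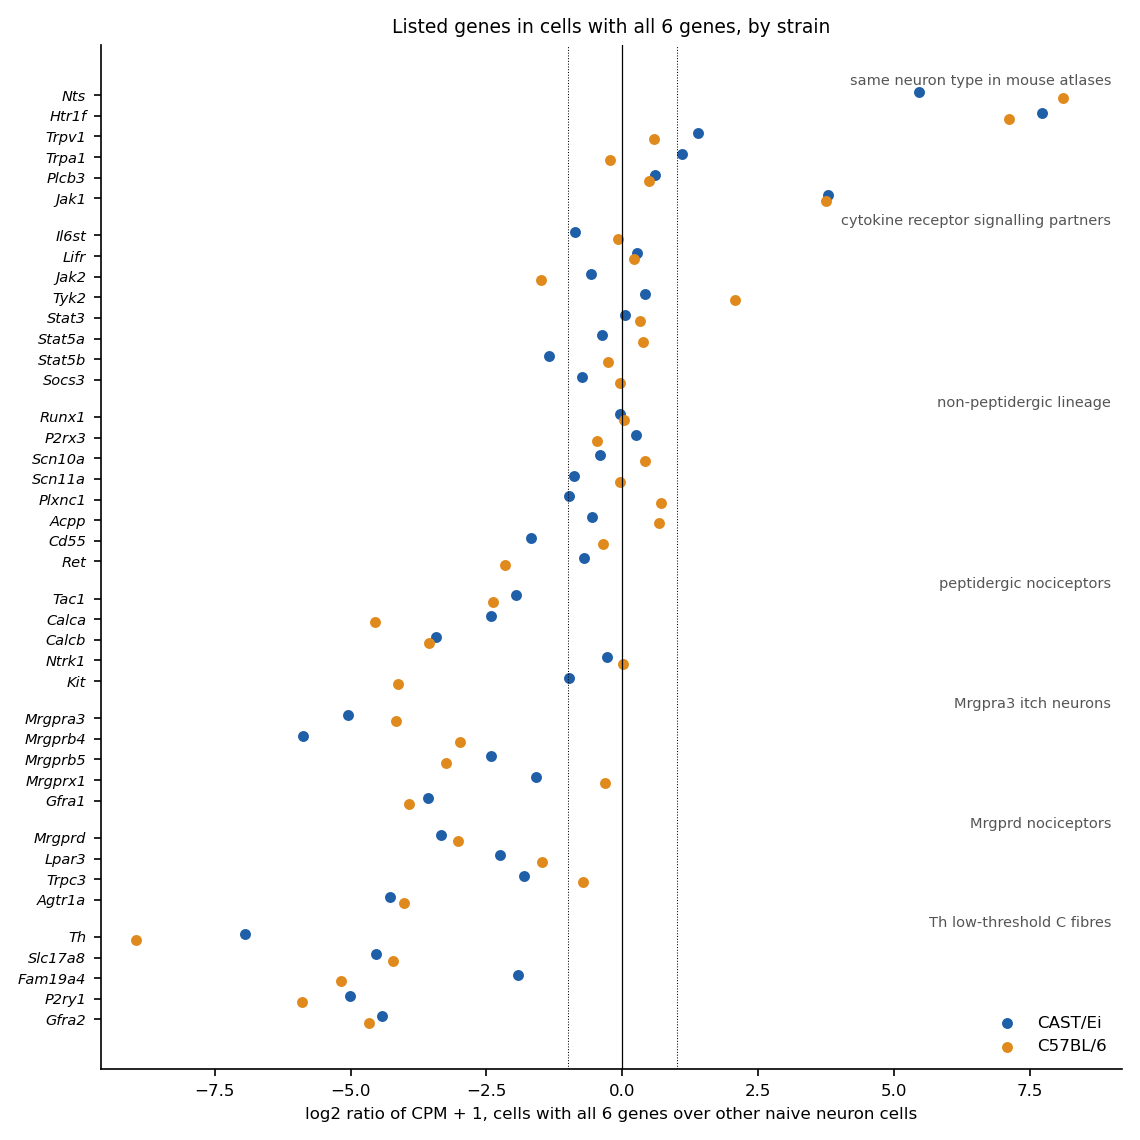
Log2 ratio of CPM + 1 (horizontal axis) of the cells with all 6 genes over the other naive neuron cells, for listed genes by group of genes, in CAST/Ei (blue, drawn above) and C57BL/6 (orange). Dotted lines mark a 2-fold difference. Nts, Htr1f and Jak1 stand far to the right in both strains and the genes of low-threshold C fibres to the left.

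Ranked by the median over the 6 genes of the lower of the strains' Pearson r across the naive cells, the most alike patterns among 11245 genes were those of Htr1f (0.67), Ada (0.57), Pde4c (0.55), Nts (0.52) and Jak1 (0.52). Osmr had a different company. Its nearest were Jak1 (0.55), Etv1 (0.50), Samd9l (0.44), Capn9 (0.44) and Cd9 (0.42). These relations of Osmr held without the cells with all 6 genes, with r of 0.51 for Etv1 in CAST/Ei and 0.43 in C57BL/6, whereas Htr1f and Sst then had r of 0.01 in CAST/Ei and -0.03 in C57BL/6. The cells left out were chosen by the 6 genes, so a fall in r for a gene confined to them follows from that choice. Npy2r was nearest to Ada (0.58), Timeless (0.52), Htr1f (0.51), Slc10a6 (0.50) and Ptprk (0.48).

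Outside the cells with all 6 genes, reads of the peptides were mostly low, and far more widespread in CAST/Ei. Of 287 such naive cells, Sst had a read in 64 CAST/Ei cells (39.8% of the strain's cells, 32.1 to 47.8) and in 9 C57BL/6 cells (7.14%, 3.32 to 13.1). Nppb had a read in 66 CAST/Ei cells (40.99%) and in 10 C57BL/6 cells (7.94%). The median level of the cells with a read was 5.86 CPM of Sst in CAST/Ei and 2.32 CPM in C57BL/6, and 6.52 CPM of Nppb in CAST/Ei and 5.05 CPM in C57BL/6. Of those cells 19 in CAST/Ei and 5 in C57BL/6 had only 1 or 2 reads of Sst. At 10 CPM or more were 23 CAST/Ei cells and 1 C57BL/6 cell for Sst, and 29 CAST/Ei and 3 C57BL/6 cells for Nppb. Both peptides had a read in 34 CAST/Ei cells and 1 C57BL/6 cell.

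The gap between the strains remained at equal depth. Cells were thinned to 300000 reads each, and cells with fewer were left out. Sst then had a read in 25.5% of CAST/Ei and 3.54% of C57BL/6 cells, and Nppb in 30.3% of CAST/Ei and 6.19% of C57BL/6 cells. In CAST/Ei the cells with an Sst read had a median of 968412 reads and those without 957887. Cells with a read were also deeper for Nppb (970321.5 and 901813), Il31ra (1038461 and 868575) and Osmr (975931 and 719015). They were less deep for Cysltr2 (850998 and 976315) and Npy2r (926037.5 and 978000). Gaps in the same direction stood for the other genes outside these cells. Before thinning, Il31ra had a read in 40.4% of the CAST/Ei and 17.5% of the C57BL/6 cells, Cysltr2 in 32.3% of CAST/Ei and 11.9% of C57BL/6 cells, Npy2r in 40.99% and 18.3%, and Osmr in 88.8% and 61.1%, in the same order. After thinning the shares were 31.7% and 13.3% for Il31ra, 24.8% and 8.85% for Cysltr2, 30.3% and 16.8% for Npy2r, and 83.4% and 58.4% for Osmr. Whether low reads of this kind were made by the cells that hold them was not tested.

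The ratio of Sst to Nppb reads was 0.651 in those cells and 0.756 outside in CAST/Ei, and 0.524 in those cells and 0.105 outside in C57BL/6. The C57BL/6 value outside rests on 19 Sst and 181 Nppb reads, most of the Nppb reads were in cell 66 (85.4 CPM), and the ratio without that cell was 0.302. In cluster 6, an unnamed cluster led by Tgtp2, Slco1a4 and Iigp1 and including the endothelial marker Flt1, 77.8% of the 18 CAST/Ei cells had an Sst read and the level was 33.2 CPM, beside 16.2 CPM of Nppb and 0.13 CPM of Cysltr2. At 10 CPM or more of Sst were 11 of these 18 cells, and the 18 held most of the Sst reads outside in CAST/Ei. The CAST/Ei neuron cells outside had 2.29 CPM of Sst and 5.88 CPM of Nppb. None of the 16 C57BL/6 cells of cluster 6 had an Sst read. Their Nppb level was 7.16 CPM, and 0.13 CPM in the 15 cells other than cell 66.

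**Figure D4:**
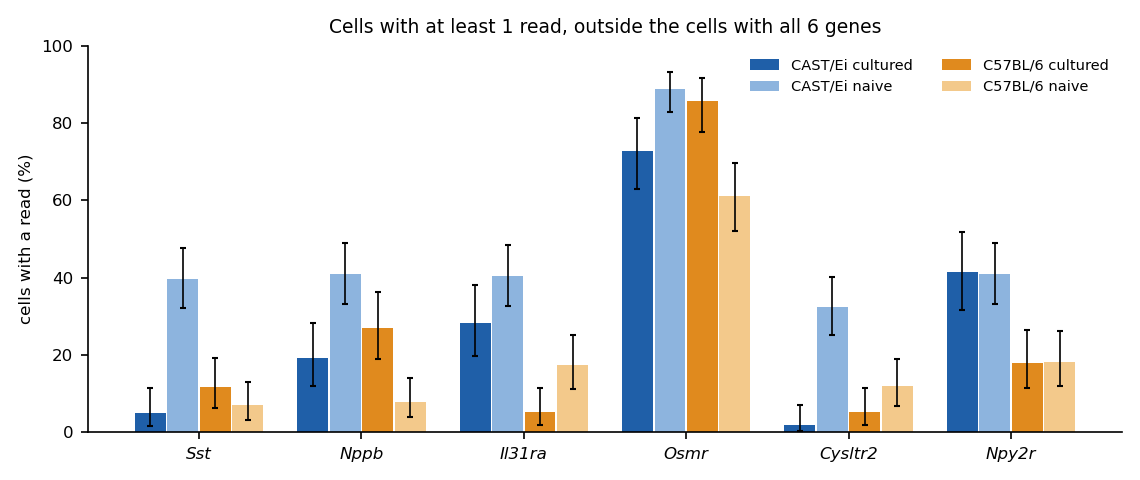
Share of cells with at least 1 read of each gene (vertical axis, %), outside the cells with all 6 genes, by group, with exact 95% binomial intervals as error bars. In naive cells, the CAST/Ei bar is above the C57BL/6 bar for each of the 6 genes, and Osmr is the most widespread in all 4 groups.

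A few naive cells outside had 1 of the narrow genes at a high level. Counting Sst, Nppb, Il31ra and Cysltr2 at 100 CPM or more, there were 10 such CAST/Ei cells and 1 such C57BL/6 cell. Of the CAST/Ei ones, cells 2, 8, 15, 16 and 96 were of cluster 6, which is not among the neuron cells. Cells 2 and 8 held 117.4 and 150.7 CPM of Sst, cells 15 and 16 held 259 and 110 CPM of Il31ra, and cell 96 held 116.4 CPM of Nppb. CAST/Ei cell 81, of cluster 4, led by Zcchc12 and Tac1, held 622 CPM of Il31ra, 771 CPM of Osmr, 177 CPM of Npy2r and 28.98 CPM of Cysltr2 and no read of Sst, Nppb or Htr1f, with 7714 CPM of Tac1. It had both chains of the IL-31 receptor at the level of the cells with all 6 genes and neither peptide. The single C57BL/6 cell, cell 24 of the same cluster, held 130 CPM of Cysltr2 and 2053 CPM of Tac1.

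Among naive neurons, Osmr was widespread and was high more often in cells with Mrgpra3, a receptor of another class of itch neuron, than in the rest. In cluster 1, led by Mrgprb4, Mrgpra4 and Gpr65, 100% of the 55 naive CAST/Ei cells had a read and the level was 175 CPM. In cluster 13, led by Car8 and the Mrgpra2 genes, 100% of the 20 naive C57BL/6 cells had a read and the level was 160.9 CPM. In cluster 6, which is not among the neuron cells, the level was higher, at 213.5 CPM in CAST/Ei and 357.6 CPM in C57BL/6. Naive neuron cells outside the cells with all 6 genes had 102.4 CPM in CAST/Ei and 50.3 CPM in C57BL/6. Among neuron cells outside the cells with all 6 genes, Osmr stood at 100 CPM or more in 46 CAST/Ei and 22 C57BL/6 cells. Of these, 30 (65.2%) in CAST/Ei and 15 (68.2%) in C57BL/6 had 100 CPM or more of Mrgpra3, against 25.8% and 7.95% of the remaining neuron cells of CAST/Ei and C57BL/6.

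Npy2r outside went with another class in naive CAST/Ei neuron cells. It stood at 100 CPM or more in 18 naive CAST/Ei neuron cells, of which 17 (94.4%) had 100 CPM or more of Tac1 and 0 had that of Mrgpra3, against 34.4% with Tac1 and 44% with Mrgpra3 among the remaining CAST/Ei neuron cells. In cluster 4, led by Zcchc12 and Tac1, its level was 185 CPM in CAST/Ei and 35.1 CPM in C57BL/6, with a read in 96.3% of 27 CAST/Ei cells and 60.9% of 23 C57BL/6 cells. In naive C57BL/6 only 2 neuron cells outside reached 100 CPM of Npy2r. Both had Tac1 at that level, but so had 61.1% of the remaining C57BL/6 neuron cells. Both also had Nefh, listed for large-diameter neurons, at that level, against 28.7% of the remaining cells. The highest Npy2r value outside, 1378 CPM, was in a CAST/Ei cell of cluster 6, which is not among the neuron cells.

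After culture, 5 of the 6 genes were at least 2-fold lower at group level in each strain and 0 were at least 2-fold higher. In CAST/Ei 18.7% of all genes were that much lower and 22.5% higher, and in C57BL/6 20.5% were lower and 23% higher. The widest gaps were those of Sst in CAST/Ei, with 1.42 CPM (1.21 to 1.65) in cultured and 82.01 CPM (80.7 to 83.4) in naive cells, a log2 ratio of CPM + 1 of -5.10, and of Il31ra in C57BL/6, with 0.638 CPM (0.489 to 0.818) in cultured and 51.03 CPM (49.7 to 52.4) in naive cells, a log2 ratio of -4.99. Without the cell with the most reads, the cultured levels were 0.739 CPM of Sst in CAST/Ei and 0.300 CPM of Il31ra in C57BL/6. Both lie outside the intervals just given. The cultured groups also held fewer neuron cells, so each ratio is also given among neuron cells. Those of these pairs were -5.31 for Sst in CAST/Ei and -3.78 for Il31ra in C57BL/6.

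Of the peptides, Nppb was lower by a like amount in the strains when all cells of a group were summed. It had 15.4 CPM in cultured and 124.97 CPM in naive CAST/Ei cells (log2 ratio -2.94, and -2.50 among neuron cells), and 5.83 CPM in cultured and 52.98 CPM in naive C57BL/6 cells (-2.98, and -2.05 among neuron cells). In cultured CAST/Ei cells 77.8% of the Nppb reads were in 1 cell, cell 54, and the level without it was 3.48 CPM. The likeness of the strains therefore rests on that cell. Without its own cell with the most reads, cultured C57BL/6 had 5.07 CPM. Sst in C57BL/6 had 9.94 CPM in cultured and 27.1 CPM in naive cells, a log2 ratio of -1.36. That value turned on 1 cell. Cultured cell 51 held 853 of the 966 Sst reads (88.3%), 879 CPM, with no read of any of the other 5 genes, and the cultured level without it was 1.17 CPM. Among neuron cells, cultured C57BL/6 cells were higher in Sst than naive ones, with 52.9 CPM and 31.9 CPM, a log2 ratio of 0.71, and that cell is one of them.

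The receptors were lower after culture to different degrees. Cysltr2 had 0.396 CPM in cultured and 20.2 CPM in naive CAST/Ei cells (log2 ratio -3.93, and -3.80 among neuron cells), and 0.504 CPM in cultured and 16.6 CPM in naive C57BL/6 cells (-3.55, and -2.84 among neuron cells). Il31ra had 8.45 CPM in cultured and 42.7 CPM in naive CAST/Ei cells (-2.21, and -1.74 among neuron cells), with 58.7% of the cultured reads in cell 57 and 3.53 CPM without it. In cultured CAST/Ei 93.3% of the Cysltr2 reads were in cell 38, and the level without it was 0.0266 CPM. Npy2r had 25.8 CPM in cultured and 103.2 CPM in naive CAST/Ei cells (-1.96, and -1.40 among neuron cells), and 6.02 CPM in cultured and 44.6 CPM in naive C57BL/6 cells (-2.70, and -1.01 among neuron cells).

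Osmr was the exception, with 88.9 CPM in cultured and 160.6 CPM in naive CAST/Ei cells (log2 ratio -0.85), and 130 CPM in cultured and 156.97 CPM in naive C57BL/6 cells (-0.27). Among non-neuronal cultured cells it was high in the fibroblast-like ones. In the fibroblast-like cluster 3, 100% of the 10 CAST/Ei and 43 C57BL/6 cultured cells had a read, at 314 CPM in CAST/Ei and 210 CPM in C57BL/6. In the main glia-like clusters its level was 51.3 CPM in cultured CAST/Ei and 35.5 CPM in cultured C57BL/6 cells. Among neuron cells Osmr had 66.1 CPM in cultured and 155.5 CPM in naive CAST/Ei cells (-1.22), and 73.9 CPM in cultured and 121.4 CPM in naive C57BL/6 cells (-0.71).

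**Figure D5:**
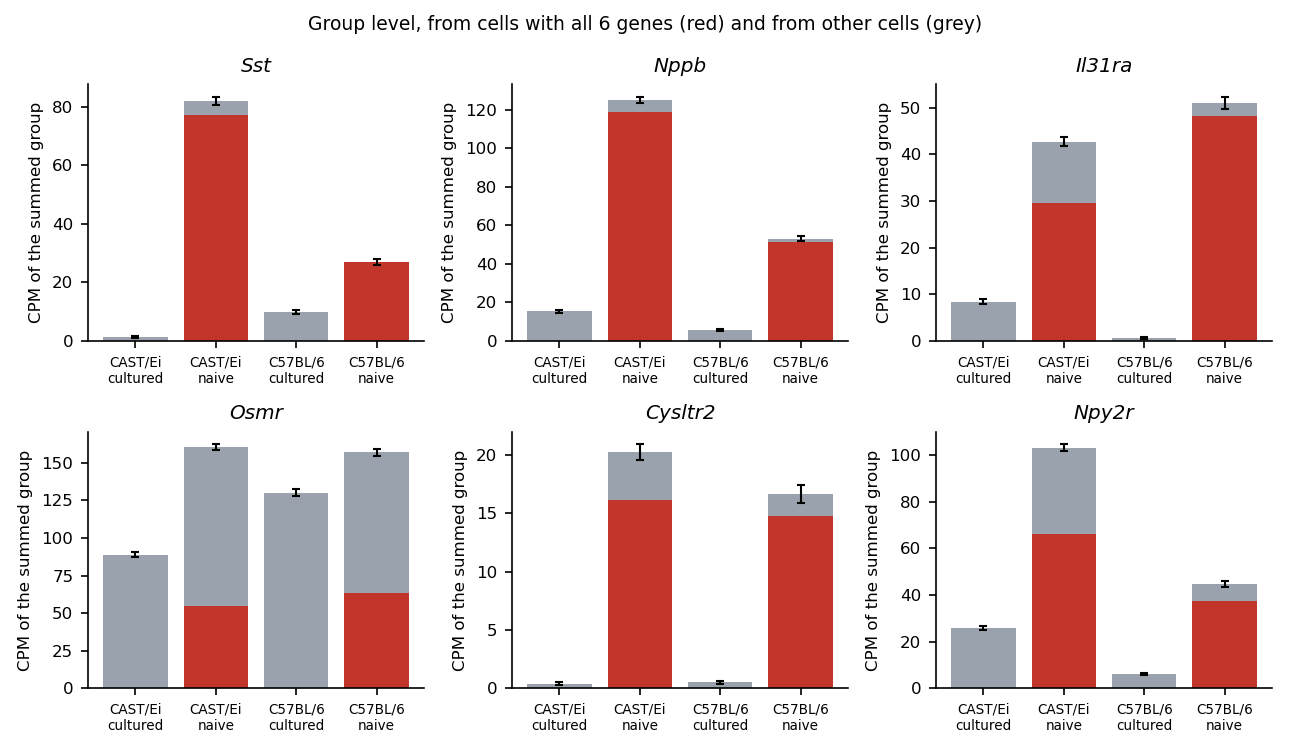
CPM of the summed reads of each group for the 6 genes, split into the part from cells with all 6 genes (red) and from other cells (grey), with exact 95% Poisson intervals of the whole bar as error bars. The cultured bars hold no red part, and for Osmr the grey part alone is above the red part in the naive groups.

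Among neuron cells only, a count of 0 with all 6 genes allows a share of up to 4.62% of the 65 cultured CAST/Ei cells and 8.82% of the 34 cultured C57BL/6 cells, beside 8.33% (4.51 to 13.8) of the naive CAST/Ei and 5.17% (1.92 to 10.9) of the naive C57BL/6 neuron cells. These limits are 3 counts over the number of cells, and the upper ends of the exact intervals were 5.52% in CAST/Ei and 10.3% in C57BL/6. Both limits lie within the interval of the naive share, in CAST/Ei just above its lower end. A count of 0 does not show that such cells were absent after culture, and the difference in share was not tested.

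A partial combination of the genes was present in cultured neurons, above all in C57BL/6. There 10 of the 34 neuron cells held at least 3 of the 6 genes, and 3 of the 65 did in CAST/Ei. Cell 57 of cultured C57BL/6 held 19.3 CPM of Sst, 60.99 CPM of Nppb, 52.97 CPM of Il31ra, 181 CPM of Osmr and 69.02 CPM of Npy2r, and no read of Cysltr2. Cell 25 held 108.7 CPM of Nppb, 798 CPM of Osmr and 227 CPM of Npy2r and no read of Sst. In cultured CAST/Ei, cell 38 held 66.3 CPM of Nppb, 106.7 CPM of Il31ra, 198 CPM of Osmr, 54.6 CPM of Cysltr2 and 120 CPM of Npy2r. In these 3 cells Nppb was below the lowest naive cell with all 6 genes of the same strain.

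Htr1f, which had no part in the definition, went with this combination in cultured C57BL/6 neurons. It stood at 10 CPM or more in 8 of the 10 cells with at least 3 genes and in 0 of the other 24 neuron cells, with a median of 65.96 CPM in the 10 cells. Jak1 had a median of 559 CPM in the 10 cells and 288 CPM in the other 24, well under the 4386 CPM of the lowest naive C57BL/6 cell with all 6 genes. In cultured CAST/Ei neurons Htr1f reached 10 CPM in 1 of the 3 cells and in 2 of the other 62. Among naive neuron cells with at least 3 but not all 6 genes, it did so in 1 of 22 in CAST/Ei and 0 of 4 in C57BL/6. The shares of the remaining naive neuron cells were 1.65% and 5.66%. In cultured C57BL/6 neurons Nts had a median of 2295 CPM in the 10 cells and 165.3 CPM in the other 24, though 83.3% of the other cells also had 10 CPM or more of it. Ada reached 10 CPM in 3 of the 10 and 5 of the 24 cells, Ptprk in 3 and 1, and Pde4c in 0 and 0. Low depth bears on the number of 10 cells: 1 of them had 17258 reads, where 1 read is worth 57.9 CPM, and after thinning to 300000 reads 6 cells with at least 3 genes remained among all cultured C57BL/6 cells.

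Between the strains, naive CAST/Ei cells were at least 2-fold higher than naive C57BL/6 cells in 3 of the 6 genes, Sst, Nppb and Npy2r, and lower in 0, against 6.71% of all genes higher and 8.08% lower. The log2 ratios were 1.56 for Sst, 1.22 for Nppb and 1.19 for Npy2r, and -0.25 for Il31ra, 0.03 for Osmr and 0.27 for Cysltr2. Among neuron cells the log2 ratios of these 3 were 1.42 for Sst, 1.13 for Nppb and 1.05 for Npy2r. Among clusters named neuron-like, which leaves out the unnamed C57BL/6 cluster with Tmem132c and Cckar in front, they were 0.94, 0.65 and 0.57 in the same order, and 0 of the 3 reached 2-fold. In cultured cells CAST/Ei was at least 2-fold higher in 3 genes and lower in 1, against 15.6% of all genes higher and 11.9% lower. Il31ra was at 8.45 CPM in cultured CAST/Ei and 0.638 CPM in cultured C57BL/6 cells (log2 ratio 2.53), Npy2r at 25.8 and 6.02 CPM (1.93), Nppb at 15.4 and 5.83 CPM (1.26) and Sst at 1.42 and 9.94 CPM (-2.18). The direction of Nppb turned without cell 54 and its C57BL/6 counterpart with the most reads (-0.44). Among neuron cells only Il31ra was at least 2-fold higher in cultured CAST/Ei than in cultured C57BL/6 (1.57), and Sst was lower (-4.60). Each of these ratios rests largely on 1 neuron cell. Cell 57 of cultured CAST/Ei held 58.7% of that group's Il31ra reads, and cell 51 of cultured C57BL/6 88.3% of that group's Sst reads. Without those cells the levels over all cultured cells were 3.53 CPM of Il31ra in CAST/Ei and 1.17 CPM of Sst in C57BL/6.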

How the data were processed

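Single cells were captured on a Fluidigm C1 chip, and Nextera libraries of up to 192 cells, with the conditions mixed, shared a sequencing run, per the labels' protocols. The values are raw read counts that the authors deposited as 1 table of 11251 genes, whose 516 columns were matched to samples by title. Bowtie2, SAMtools and mm10, a build of the C57BL/6 genome, are named without versions, per the submitters' processing notes, and which counter, annotation and filters were used is not stated in them. Every gene had a read in at least 60 cells. Depth was 13932 to 2978345 reads per cell.

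The genes and lists were chosen with earlier results of these data known. Counts were scaled to CPM per cell, or per group after summing. Differences are log2 ratios of CPM + 1, with exact 95% Poisson and Clopper-Pearson intervals and a limit of 3 counts for a count of 0 (scipy 1.17.1). A gene counted as higher or lower at a 2-fold difference. Co-expressing cells held at least 3 of the 6 genes at 10 CPM, and all 6 as a definition added after the data were seen. Clustering (scanpy 1.11.5, leidenalg 0.10.2) used 2000 variable genes without the 6, 20 components, 15 neighbours and resolution 1 and gave 15 clusters. A cluster took the name of the highest marker list with at least 3 genes in the table, and lost it where its 10 leading genes held more markers of another class. Neuron cells were those of clusters with the neuron list highest, also added later. No doublet caller was run. The named genes were the 20 other genes with the largest log2 ratio in the strain where it was smaller, among those with at least 50 CPM in the co-expressing cells and 10 CPM in at least 75% of them in both strains. All members of the lists were counted. Members at least 2-fold apart in both strains, or at the head or end of their list, could be named, and Lifr, Stat3, Il6st, Trpv1, Trpa1, Plcb3, Scn10a, Runx1, Nmb, Cdh5 and Ly6c1 were chosen as examples after their values were seen. Of the lists, 3 of 8 genes of the peptide receptor list, 4 of 5 of the large-diameter list, 7 of 8 endothelial, 4 of 5 mural, 1 of 10 macrophage and 0 of 5 erythroid markers were in the table. The computation was checked on simulated data. All 6 genes matched the RefSeq promoter table. Il31ra overlaps the pseudogene Gm3226, which is not in the table.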

Additional observations from a re-analysis of the deposited data

Results flagged for a closer look

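The strain difference of Sst had opposite directions in the naive and the cultured state. Naive CAST/Ei cells were higher than naive C57BL/6 cells (log2 ratio 1.56) and cultured CAST/Ei cells lower than cultured C57BL/6 cells (-2.18), so that the ratio differed by -3.74 between cultured and naive cells. With 1 sample per group the difference was not tested. It rests on cultured C57BL/6 cell 51, which held 88.3% of that group's Sst reads. Without the cell with the most Sst reads in each group, the cultured levels were 0.739 CPM in CAST/Ei and 1.17 CPM in C57BL/6.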

How the results depend on the processing

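Under the alternatives 11 log2 ratios of the 6 genes turned their direction. Those of at least 2-fold that did were Sst, cultured over naive C57BL/6, at 0.24 in named neuron-like cells, 0.71 in clusters with the neuron list highest and 3.21 without the cells with all 6 genes, Nppb at 1.32 in C57BL/6 and 1.07 in CAST/Ei without those cells, and Nppb, cultured CAST/Ei over cultured C57BL/6, at -0.44 without the cell with the most reads. Without the cells with all 6 genes, genes at least 2-fold lower after culture numbered 2 in CAST/Ei and 1 in C57BL/6, and genes higher 1 in CAST/Ei and 2 in C57BL/6. That alternative takes out only naive cells, chosen for high levels of these genes, so it lowers the naive side by construction. Its Nppb value in CAST/Ei also rests on cultured cell 54 (3.48 CPM without it, against 6.84 CPM in naive cells) and its Sst value on cultured C57BL/6 cell 51 (1.17 CPM without it, against 0.182 CPM in naive cells). In neuron-like cells 0 genes were 2-fold higher in naive CAST/Ei than in naive C57BL/6. In cultured cells the 1 gene lower in CAST/Ei became 0 without the cell with the most reads, with a pseudocount of 10 CPM and with a minimum of 10 CPM, and the 3 higher became 1 in neuron-like cells, in clusters with the neuron list highest and with that pseudocount.

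The number of co-expressing cells depended on the definition. In cultured CAST/Ei cells it was 12 at 1 CPM, 1 at 100 CPM, 27 with at least 2 genes, 1 with at least 4 and 0 with all 6, against 3. In naive CAST/Ei cells it was 97, 14, 91, 21 and 13 in the same order, against 40. In cultured C57BL/6 cells it was 2 at 100 CPM, 24 with at least 2 genes, 4 with at least 4 and 0 with all 6, against 10. There it was 6 after thinning, which leaves out cells under 300000 reads. In naive C57BL/6 cells it was 16 at 1 CPM, 6 at 100 CPM, 25 with at least 2 genes, 6 with at least 4 and 6 with all 6, against 10. The share of Sst and Nppb reads outside co-expressing cells was 96.6% in cultured CAST/Ei (91.1% at 1 CPM, 14.9% with at least 2 genes and 100% with all 6), 2.59% in naive CAST/Ei (1.46%, 1.01% and 5.44%), 77.95% in cultured C57BL/6 (73.8%, 61.7% and 100%) and 1.65% in naive C57BL/6 (0.17% with at least 2 genes and 2.24% with all 6). With co-expressing cells of at least 3 genes, 255 genes were 2-fold lower in both strains than in other naive neuron-like cells. Against all other naive cells 84 were higher, with at least 4 genes 764 were lower, and with all 6 genes 1397 were lower, or 1441 with the wider neuron class. The causes were not tested.

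Leaving out single replicates was not run, since each group is 1 sample, and the cell with the most reads was left out instead. No paired analysis was possible because the replicate numbers only name cells and no result comes from a test. Depth limits the cells under 300000 reads, 65 of 516, in which a few reads pass 10 CPM.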
